A study of Mus musculus with 18 samples.

Results

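Blood clots when thrombin turns fibrinogen into fibrin, and clots are cleared when plasmin cuts fibrin again. The 32 genes described here encode the proteins of both processes: the fibrinogen chains and the enzyme that crosslinks fibrin, the clotting factors, their inhibitors, and the plasminogen system. They were chosen by name as the rows of the deposited expression table with these symbols, 32 of 54532 genes, each present once. The table covers 3 preparations of mouse liver cells, taken after bile duct ligation (BDL), which blocks bile flow and causes cholestasis, or after a sham operation (Sham). MPH are primary hepatocytes, BECs are biliary epithelial cells, the lining of the bile ducts, and the Kupffer-like cells (Kupffer below) are named after the liver's resident macrophages. Each of the 6 combinations of preparation and operation had 3 libraries of polyadenylated RNA, 18 in all, and the study asked how ligation changes gene expression in each kind of cell. The labels name no mouse strain, genotype, age or time after ligation. They do not say whether each library came from its own mouse, so p-values measure only the spread between these libraries.

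Hepatocytes make most plasma clotting factors, fibrinogen, antithrombin, plasminogen and its inhibitor antiplasmin. Fibrinogen is an acute phase protein whose genes respond to interleukin 6 through STAT3, and several factors depend on vitamin K, whose uptake needs bile. Other members belong to cells of the vessel wall or to macrophages. Endothelial cells make factor VIII, von Willebrand factor and thrombomodulin, and tissue factor and the plasminogen activators are made by several kinds of cell.

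Values are FPKM (fragments per kilobase of transcript, scaled for library size) as the authors deposited them, and so a level per length. Between 15451628 and 20577884 reads in genes per library were recovered from them. Changes are given as log2 fold changes of FPKM + 1, tested with limma over every gene with at least 1 FPKM in at least 3 libraries of the comparison, and a gene counts as called where the p adjusted by Benjamini-Hochberg is under 0.05. In bulk RNA, fewer cells of a type and less RNA per cell cannot be told apart. The preparations were not pure. In the Sham libraries the FPKM of 15 hepatocyte markers summed to 55230 to 129341 in MPH, to 1694 to 4240 in BECs and to 539.5 to 1300.5 in Kupffer. The sum of 12 Kupffer cell markers was 2468.5 to 10084.6 in MPH Sham against 8330.3 to 9834.5 in Kupffer Sham, and that of 11 endothelial markers was 199 to 901.5 in MPH, 218 to 286 in BECs and 1486 to 1772 in Kupffer. None of these markers was at 0 in all libraries of a group. Kupffer BDL 3 stood apart: its Kupffer cell markers summed to 3146 FPKM, beside 19120 and 13601 in Kupffer BDL 1 and 2, and its 9 neutrophil markers to 2442, beside 916 and 877.

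In the Sham libraries, 21 of the 32 genes stood above BECs and Kupffer in MPH by the limma test, against 21.4% of all 14466 genes tested. They were the 3 fibrinogen chains, F13b, F2, F5, F7, F9, F10, F11, F12, Klkb1, Kng1, Kng2, Serpinc1, Serpind1, Proc, Plg, Serpinf2, Cpb2 and Hrg. Their log2 differences ran from 2.67 (Proc) to 5.32 (Cpb2) against BECs and from 3.16 (F7) to 6.90 (Fgg) against Kupffer, with limma adjusted p of at most 0.000286. F3, Vwf, Plat and Plaur were higher in BECs than in both others (background 16.0%), and F13a1, F8, Tfpi and Pros1 were higher in Kupffer than in both others (background 13.1%). Without Kupffer Sham 2 the count for Kupffer was 2. Thbd, Procr and Plau were not highest in 1 preparation alone: Thbd and Plau were lower in MPH than in BECs and in Kupffer, and Procr did not pass in any of the 3 pairwise comparisons, which called 58.3% (MPH and BECs), 56.8% (MPH and Kupffer) and 43.9% (BECs and Kupffer) of all genes. The heat map shows the 3 patterns of level.

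**Figure D1:**
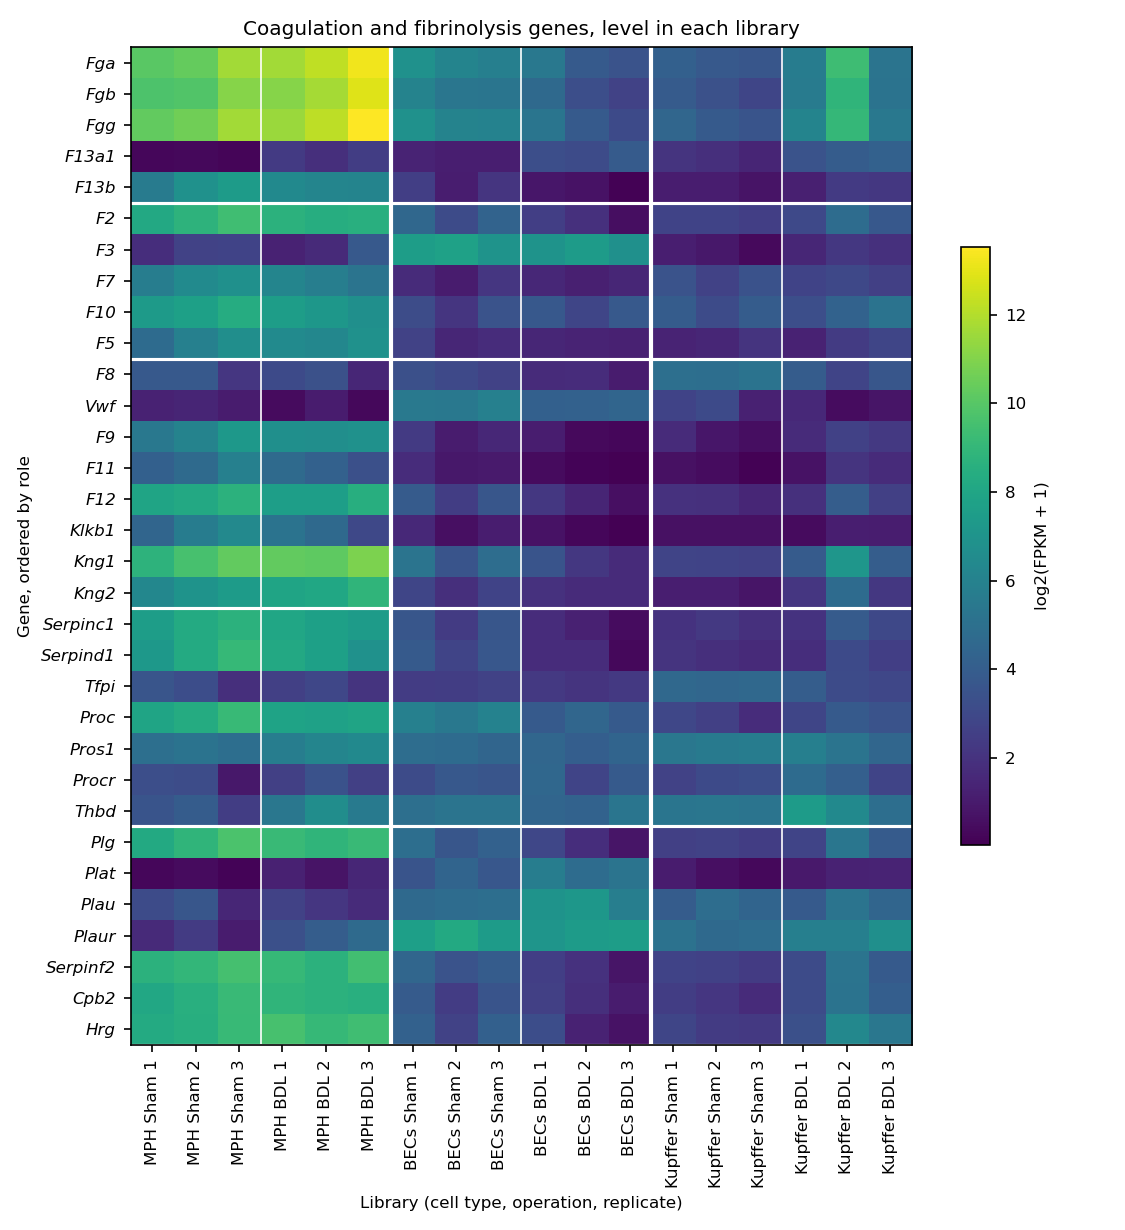
Level of each of the 32 genes (rows, ordered by role and separated by white lines) in each of the 18 libraries (columns), as log2(FPKM + 1). The fibrinogen chains Fga, Fgb and Fgg are the brightest rows in MPH, F3 and Plaur are brightest in BECs, and Kupffer BDL 2 stands out among the Kupffer libraries for the fibrinogen chains.

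After ligation, few of these genes passed the test in MPH and Kupffer and more did in BECs. In MPH, 1 of 31 tested genes was called (background 1.57% of 12323 genes, 0.714% higher and 0.860% lower), namely F13a1, which rose but passed the filter on low values only through its BDL libraries. There 9 of the 31 had an unadjusted p under 0.05, beside 2791 of the 12323 genes. Such a p was held by 3526 of 13573 genes in BECs and by 3070 of 12748 in Kupffer. In BECs, 9 of 30 were called (background 7.66% of 13573 genes, 2.96% higher and 4.70% lower). F13a1, Plau and Plat rose, and Serpinc1, Serpind1, Serpinf2, Proc, F8 and Vwf fell. In Kupffer, 2 of 30 were called (background 3.88% of 12748 genes, 1.47% higher and 2.40% lower), with F13a1 higher and F8 lower. With the libraries scaled to a common sum or to recovered reads, Tfpi was called lower in Kupffer as well, 1 higher against 2 lower. Over all genes those fits called 709 and 619, in place of 494. Over the tested members the log2 fold change had a median of -0.01 in MPH, -1.35 in BECs and 1.02 in Kupffer, beside -0.06, -0.03 and 0.03 over all genes tested. It was above 0 for 15 of 31 members in MPH (background 45.2%), 5 of 30 in BECs (46.4%) and 25 of 30 in Kupffer (52.7%). F13b, which was below 0 in BECs, passed the filter there only through its Sham libraries. By role, the median in MPH was 1.66 for fibrin and its crosslinking, -0.19 for prothrombin and the initiating and common pathway, -0.50 for the intrinsic and contact pathway, -0.39 for the anticoagulants and 0.13 for fibrinolysis.

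Those counts moved with single libraries, and so did the counts over all genes tested. In MPH no member was called by limma when any 1 of the 6 libraries was left out. F13a1, the member called in the main fit, reached 1 FPKM in its BDL libraries alone. Without any 1 of those it could not be tested, so its loss there was fixed in advance. Those 6 fits called 8 to 77 of all genes, in place of 194. In them and in the fit without a filter 5 to 15 members had an unadjusted p under 0.05. The count over all genes at that p was not taken in these fits. The BECs count was 1 without BECs Sham 1 and 4 without BECs Sham 3 or BECs BDL 2. Over all genes those fits called 86 (without Sham 1), 636 (without Sham 3) and 407 (without BDL 2), in place of 1040. The Kupffer count was 0 without Kupffer Sham 1, Sham 2, Sham 3 or BDL 2 (9 to 19 members at an unadjusted p under 0.05 wherever limma called none), 6 without BDL 1 and 7 without BDL 3. Without Kupffer Sham 1, Sham 2, Sham 3 or BDL 2 limma called 0 of all genes, so that loss was not particular to the members. It called 533 genes without BDL 1 and 2272 without BDL 3, in place of 494.

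**Figure D2:**
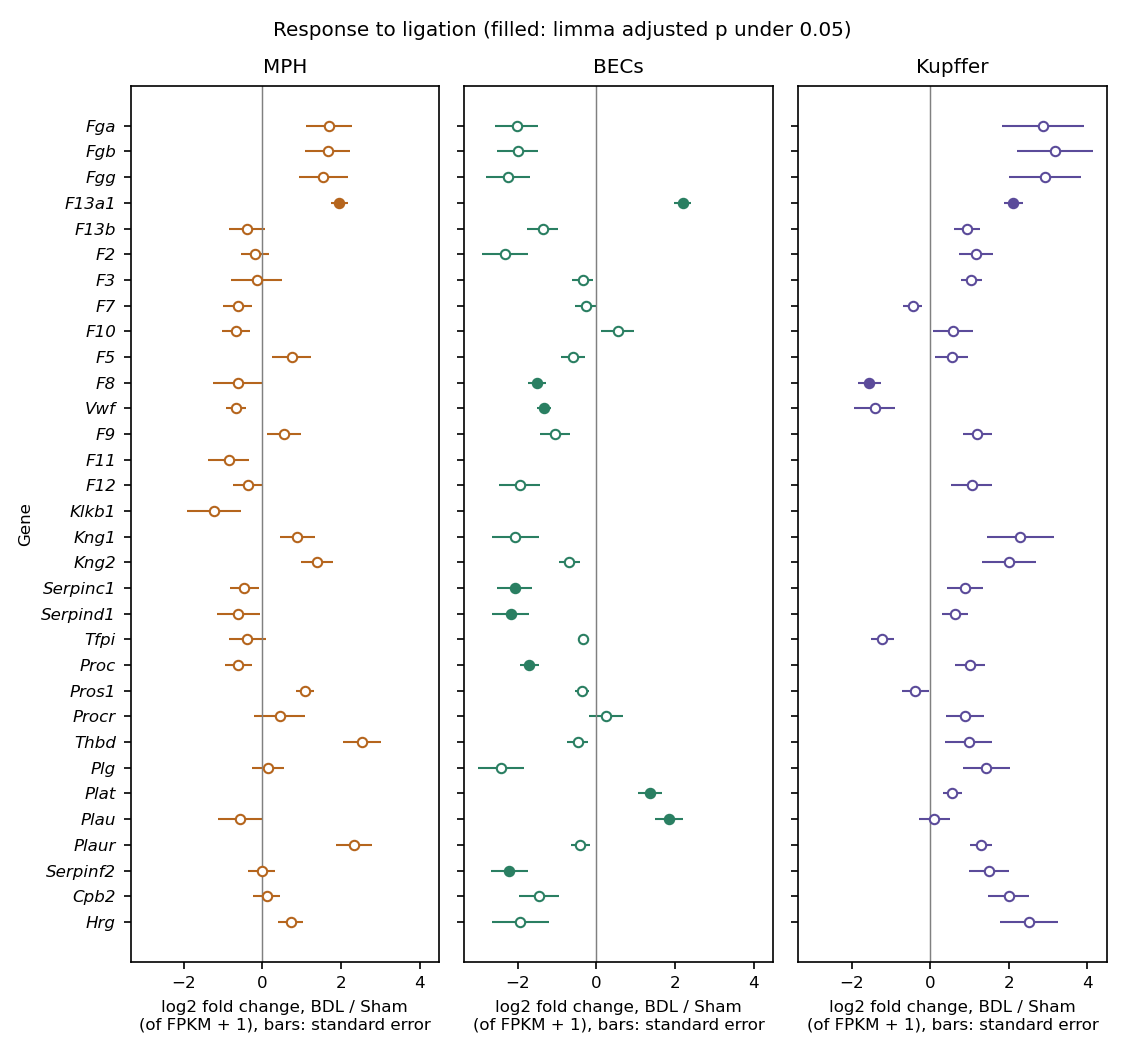
Log2 fold change of FPKM + 1, BDL over Sham, for each tested member (rows) in MPH, BECs and Kupffer (panels), with the standard error as bars and filled points where the limma adjusted p was under 0.05. Most points lie left of 0 in BECs and right of 0 in Kupffer, and F13a1 is filled in each panel, in MPH after passing the filter on low values only through the BDL libraries.

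The fibrinogen genes Fga, Fgb and Fgg, for the alpha, beta and gamma chains, lie side by side on mouse chromosome 3 (GRCm38). Fgg spans 83007724 to 83015049 and Fga 83026076 to 83033627 on the plus strand, and Fgb spans 83040141 to 83049863 on the minus strand. All are protein coding, and none shared a run of 50 bases with another gene's transcripts. Their promoters are shown because these genes are known targets of interleukin 6 and are the most abundant members in MPH. The 250 bases before each RefSeq start site (GRCm38.p6) are printed 5′ to 3′ on the gene's own strand, and capitals mark matches, on either strand, to CTGGGAA (the interleukin 6 response element), TTCNNNGAA (STAT) or GTTAAT (HNF1).
Fga, chr3:83025903-83026152, plus strand: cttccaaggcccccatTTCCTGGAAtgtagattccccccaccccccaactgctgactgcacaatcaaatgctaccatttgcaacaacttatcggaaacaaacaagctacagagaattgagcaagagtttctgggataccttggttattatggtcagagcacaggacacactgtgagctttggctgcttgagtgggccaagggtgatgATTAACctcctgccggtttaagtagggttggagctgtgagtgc
Fgb, chr3:83049864-83050113, minus strand: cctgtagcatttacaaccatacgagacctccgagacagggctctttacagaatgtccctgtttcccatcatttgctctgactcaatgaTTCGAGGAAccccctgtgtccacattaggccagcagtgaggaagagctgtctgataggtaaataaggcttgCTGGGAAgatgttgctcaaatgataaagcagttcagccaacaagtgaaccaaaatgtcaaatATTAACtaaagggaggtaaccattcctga
Fgg, chr3:83007474-83007723, plus strand: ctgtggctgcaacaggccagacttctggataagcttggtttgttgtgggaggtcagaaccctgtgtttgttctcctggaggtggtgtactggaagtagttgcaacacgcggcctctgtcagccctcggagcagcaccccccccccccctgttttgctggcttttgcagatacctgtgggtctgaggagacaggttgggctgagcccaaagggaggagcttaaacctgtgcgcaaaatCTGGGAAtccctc
Fga had a STAT match beginning 234 bases before the start site and an HNF1 match at 43 bases. Fgb had a STAT match at 162 bases, an interleukin 6 element at 91 and an HNF1 match at 29, and Fgg had an interleukin 6 element at 13. Of all 32851 RefSeq promoter windows of 300 bases (250 before and 50 after the start), 11.1% held CTGGGAA, 8.30% TTCNNNGAA and 7.10% GTTAAT. Of the 32 members 25 had a window, and 5, 4 and 4 of them held these motifs: F9, Fgb, Fgg, Kng2 and Tfpi the first, F9, Fga, Fgb and Pros1 the STAT motif, and F13b, F2, Fga and Fgb the HNF1 motif. No member window held CAAAGTCCA (HNF4, 0.475% of all windows) or TTGCGCAA (C/EBP, 0.183%). A match is a run of letters and not a measured binding site.

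In MPH the fibrinogen chains had higher means after ligation, but none was called. Fga was at 1069, 1311 and 3201 FPKM in MPH Sham and at 3225, 4838 and 9847 in MPH BDL, a ratio of means of 3.21 (BDL over Sham). Fgb was at 865, 948 and 2141 FPKM in Sham and 2204, 3371 and 7457 in BDL, a ratio of 3.30. Both sets of libraries just failed to overlap, with MPH Sham 3 next to MPH BDL 1. Fgg was at 1257, 1550 and 3286 FPKM in Sham and 2932, 4646 and 11874 in BDL (ratio of means 3.19), and MPH Sham 3 lay above MPH BDL 1. With limma the log2 fold changes were 1.70 (standard error 0.58, adjusted p = 0.155) for Fga, 1.66 (0.57, 0.156) for Fgb and 1.55 (0.62, 0.202) for Fgg.

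The spread in MPH Sham was shared by the hepatocyte genes. All 21 members that were highest in MPH had their lowest Sham value in MPH Sham 1 and their highest in MPH Sham 3, the same order as the summed hepatocyte markers (55230, 82938 and 129341 FPKM). Set against albumin (Alb) in the same library, the fibrinogen values drew apart. Fga stood at 44.1, 29.0 and 39.9 FPKM per 1000 FPKM of Alb in Sham and at 100.1, 123 and 130 in BDL. Fgb stood at 35.7, 20.96 and 26.7 against 68.4, 85.8 and 98.7, and Fgg at 51.8, 34.3 and 41.0 against 91.0, 118 and 157. On this scale the groups did not overlap, with BDL higher, for 6 of the 21 members (Fga, Fgb, Fgg, F5, Kng1 and Kng2), against 3.85% of all genes tested in MPH, and for none with BDL lower (4.01%). Alb itself did not pass the test in MPH (log2 fold change 0.04, limma adjusted p = 0.976). With 3 libraries against 3, an exact permutation test cannot give a p below 0.1, so no p is given for these ratios.

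**Figure D3:**
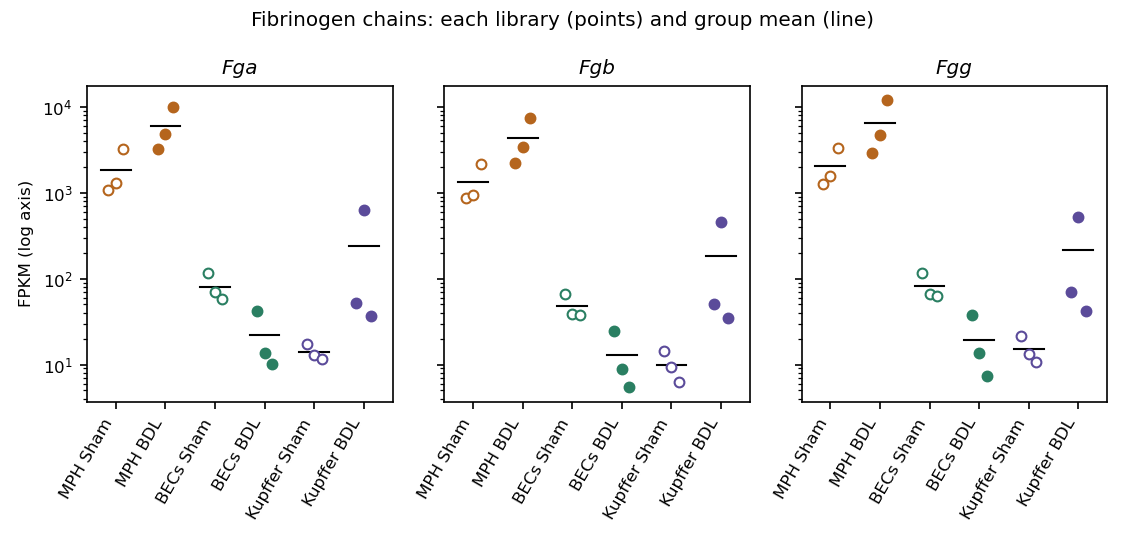
FPKM of Fga, Fgb and Fgg (panels, log axis) in each library (points, open for Sham and filled for BDL) with the group mean as a line. The BDL mean lies above the Sham mean in MPH and Kupffer and below it in BECs, and Kupffer BDL 2 stands far above the other Kupffer libraries (637 FPKM for Fga beside 51.4 and 37.0).

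In BECs the fibrinogen chains were lower in every BDL library than in every Sham library, and in Kupffer they were higher in every BDL library, but none was called. Fga was at 115, 69.3 and 57.2 FPKM in BECs Sham and 42.1, 13.6 and 10.1 in BECs BDL (limma log2 fold change -2.03, standard error 0.54, adjusted p = 0.0733). In Kupffer it was at 17.3, 12.8 and 11.7 FPKM in Sham and 51.4, 637 and 37.0 in BDL (2.88, standard error 1.05, adjusted p = 0.17). Fgb and Fgg had the same pattern, with log2 fold changes of -2.01 and -2.24 in BECs and 3.18 and 2.92 in Kupffer. Kupffer BDL 2 stood far above the other libraries, and without it the Kupffer log2 fold changes were 1.60 for Fga (adjusted p = 0.0786), 2.04 for Fgb and 1.83 for Fgg.

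F13a1 encodes the catalytic A subunit of factor XIII, the transglutaminase that crosslinks fibrin, and it was the 1 member called in all 3 preparations, in MPH with every Sham library under the filter on low values. There it was at 0.190, 0.235 and 0.172 FPKM in Sham and 4.08, 2.59 and 4.58 in BDL (limma log2 fold change 1.96, standard error 0.22, adjusted p = 0.0179), and it passed the filter there through the BDL libraries alone. In BECs it was at 1.60, 1.21 and 1.27 FPKM in Sham and 8.81, 7.66 and 14.0 in BDL (2.20, standard error 0.22, adjusted p = 0.00751). In Kupffer it was at 3.11, 2.63 and 1.71 FPKM in Sham and 10.4, 14.5 and 17.6 in BDL (2.12, standard error 0.24, adjusted p = 0.0236). Every BDL library was above every Sham library of its preparation. Adding 1 to the FPKM understates the change of a gene this low. The BECs call held in each of the 6 other settings and without each of the 6 libraries. In Kupffer the adjusted p was 0.0873, 0.152, 0.134 and 0.0714 without Sham 1, Sham 2, Sham 3 and BDL 2. In MPH it was 0.0806, 0.0688 and 0.0646 without Sham 1, Sham 2 and Sham 3, and without any BDL library too few values reached 1 FPKM for a test. The gene overlaps 2 antisense genes, and whether the counting used strand is not given in the sources used here.

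Monocyte markers were called higher beside F13a1 for 2 of 8 in BECs (Itgam and Vcan), 1 of 8 in Kupffer (Ccr2) and 1 of 5 tested in MPH (Chil3). Of all genes, 2.96%, 1.47% and 0.714% were called higher in these preparations. The summed FPKM of the 8 markers was 58.5 to 70.0 in BECs Sham and 99.0 to 263 in BECs BDL. It was 188 to 444 and 582 to 799 in Kupffer Sham and BDL, and 25.3 to 108 and 116 to 194 in MPH Sham and BDL. Platelets also carry factor XIII A. Of 12 platelet and megakaryocyte markers, Pf4 was called higher in BECs. Of the 12, 2 were at 0 in all libraries of BECs Sham, 2 in those of BECs BDL, and 1 in those of each MPH and Kupffer group. Most were low in BECs: 9 of the 12 were under 1 FPKM in all libraries of BECs Sham and 10 in those of BECs BDL. In MPH Sham and MPH BDL 5 and 7 were, and in each Kupffer group 5. The part of these cells in the rise of F13a1 was not tested. F13b, the carrier B subunit, was not called: it stood at 49.0, 114 and 173 FPKM in MPH Sham and 85.7, 71.3 and 69.1 in MPH BDL, with the BDL values inside the Sham range.

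Among prothrombin, the initiating factors and the common pathway, limma called none of 5 genes in any preparation, and 0, 1 and 2 of them had an unadjusted p under 0.05 in MPH, BECs and Kupffer. Over all genes 2791 of 12323, 3526 of 13573 and 3070 of 12748 had such a p. F2, prothrombin, was at 284, 426 and 662 FPKM in MPH Sham and 412, 353 and 371 in MPH BDL, again inside the Sham range. F5, factor V, the cofactor that speeds thrombin formation, was at 25.8, 58.9 and 105 FPKM in MPH Sham and 88.3, 75.6 and 117 in BDL. F7 and F10, the vitamin K dependent factors VII and X, had log2 fold changes of -0.63 and -0.68 in MPH, with overlapping groups.

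F3, tissue factor, which starts clotting by binding factor VII, was highest in BECs. It stood at 187, 218 and 123 FPKM in BECs Sham, 2.44, 5.39 and 5.68 in MPH Sham and 1.22, 0.872 and 0.313 in Kupffer Sham. The 3 preparations did not overlap, and the log2 differences were 5.03 from MPH and 6.61 from Kupffer (limma adjusted p = 3.18e-06 and 9.89e-07). In BECs BDL it was at 123, 173 and 113 FPKM, within the reach of Sham (adjusted p = 0.471), and in Kupffer BDL at 1.78, 3.59 and 2.77, above each Sham library but not called (log2 fold change 1.05, adjusted p = 0.0877).

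By their means F7 and F10 stood above the level of hepatocyte markers in Kupffer Sham, but library by library only F7 did throughout. Over 15 hepatocyte markers, the level in Kupffer Sham was 0.709% to 3.78% of that in MPH Sham, with a median of 1.02%. F7 stood at 9.96% and F10 at 5.14% of the MPH mean, above that whole range of means, while the other 19 members that were highest in MPH stood within or under it. By library F7 was at 11.9%, 6.475% and 11.5%, above every marker of its library. F10 was at 6.12%, 3.20% and 6.09%. The highest markers of these libraries were at 6.49% (Hnf4a), 4.25% (Hpd) and 1.29% (Hpd), so F10 was above them in Kupffer Sham 3 alone. In BECs Sham, where the markers ran from 1.22% to 15.9% (median 3.63%), F7 and F10 lay inside the range. They also lay inside it in Kupffer BDL, at 10.7% and 14.3% beside markers of 2.13% to 28.1%. F7 was higher in Kupffer Sham (10.1, 5.52 and 9.79 FPKM) than in BECs Sham (2.22, 1.12 and 3.55), by 1.55 on the log2 scale (limma adjusted p = 0.00682). For F10 that difference was 0.76 and did not pass (adjusted p = 0.174).

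**Figure D4:**
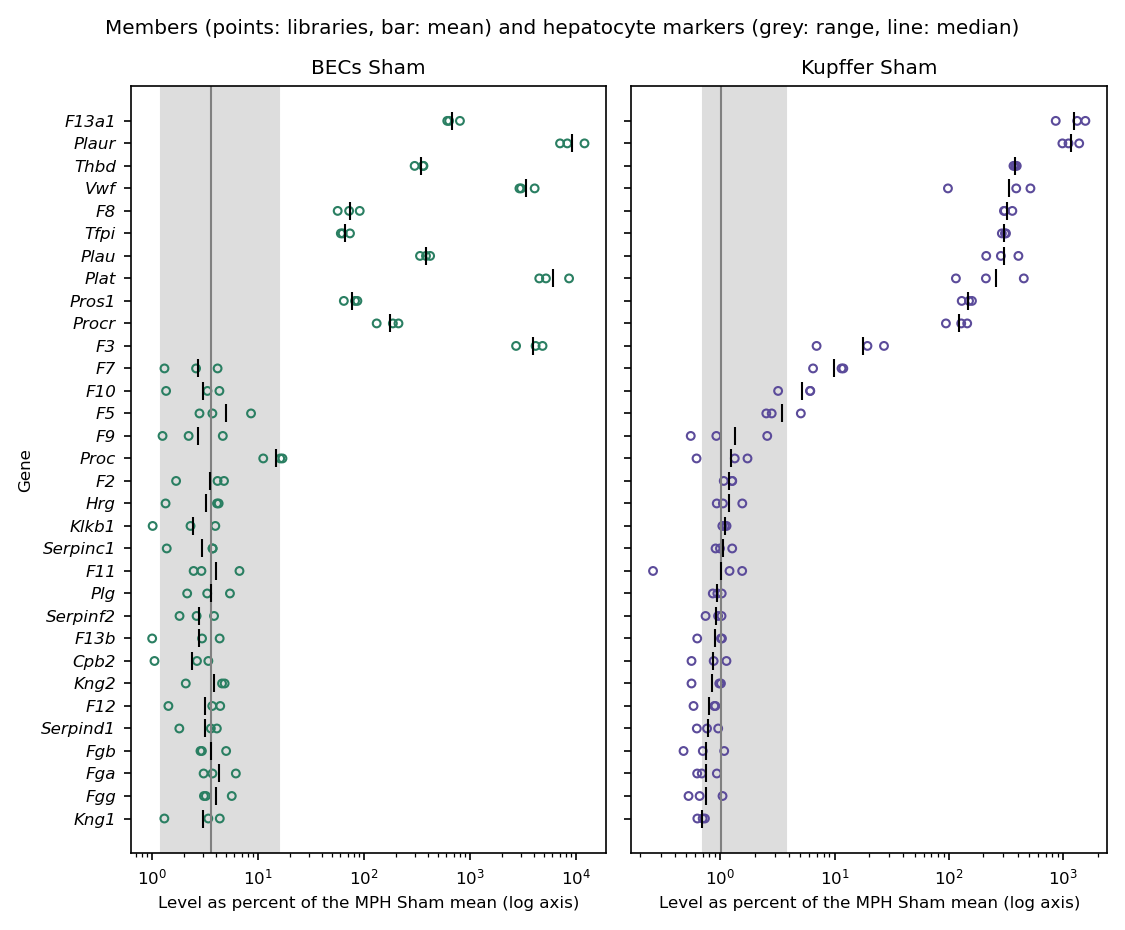
Level of each member in BECs Sham and Kupffer Sham as a percent of the MPH Sham mean (log axis), with each library as a circle and the mean as a bar, beside the range (grey) and median (line) of 15 hepatocyte markers. In Kupffer Sham the means of F7 and F10 (9.96% and 5.14%) stand to the right of the grey band, with F10 in Kupffer Sham 2 inside it at 3.20%. The means of 11 members, from F3 upward, lie right of the band in both preparations.

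The contact and intrinsic factors of the liver, F9, F11, F12, Klkb1 (plasma prekallikrein), Kng1 and Kng2 (kininogens), were not called in any preparation. F9 was at 42.4, 66.0 and 148 FPKM in MPH Sham and 109, 103 and 117 in BDL. Kng2 was at 76.2, 126 and 176 FPKM in MPH Sham and 241, 271 and 473 in MPH BDL, without overlap (limma log2 fold change 1.39, standard error 0.41, adjusted p = 0.121). Kng1 was at 439, 788 and 1253 FPKM in Sham and 1260, 1169 and 1867 in BDL. The kininogen values are uncertain, since 17.2% of the runs of 50 bases in Kng1 transcripts and 19.4% of those in Kng2 occur in the other gene. The same holds for Klkb1, which shares 42.7% of its runs with other genes and overlaps the gene Gm45753 on the same strand. F11 and Klkb1 were too low to be tested in BECs and Kupffer.

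F8 and Vwf, the factor VIII and von Willebrand genes, which circulate as 1 complex, were called in BECs, and F8 also in Kupffer. F8 was at 30.1, 29.6 and 35.0 FPKM in Kupffer Sham and 14.3, 6.08 and 11.6 in Kupffer BDL, a fall of every library below Sham (limma log2 fold change -1.55, standard error 0.29, adjusted p = 0.0477). That adjusted p was 0.14, 0.206, 0.194 and 0.0681 without Kupffer Sham 1, Sham 2, Sham 3 and BDL 2. In BECs F8 was at 8.90, 7.07 and 5.52 FPKM in Sham and 2.22, 2.32 and 1.11 in BDL (-1.51, standard error 0.23, adjusted p = 0.0188), a call missed without BECs Sham 1 (0.073) or Sham 2 (0.0526). In MPH it was at 13.0, 12.9 and 3.48 FPKM in Sham and 7.23, 9.53 and 1.76 in BDL, where the groups overlapped and the lowest library of each group was also the one with the lowest endothelial marker sum.

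Vwf was at 44.0, 42.4 and 59.0 FPKM in BECs Sham and 17.3, 17.5 and 20.9 in BECs BDL (limma log2 fold change -1.33, standard error 0.17, adjusted p = 0.013), a call missed without BECs Sham 1 (0.0573). In Kupffer it was at 5.62, 7.47 and 1.42 FPKM in Sham and 1.99, 0.376 and 0.725 in BDL, with overlap (-1.42, adjusted p = 0.178). Endothelial markers moved with both genes. In BECs 7 of 11 were called lower (background 4.70%), and their sum was 218 to 286 FPKM in Sham and 86.5 to 143 in BDL. In Kupffer 4 of 11 were called lower (background 2.40%), and the sum was 1486 to 1772 in Sham and 401.5 to 1145 in BDL. The part of endothelial cells in the falls of F8 and Vwf was not tested.

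**Figure D5:**
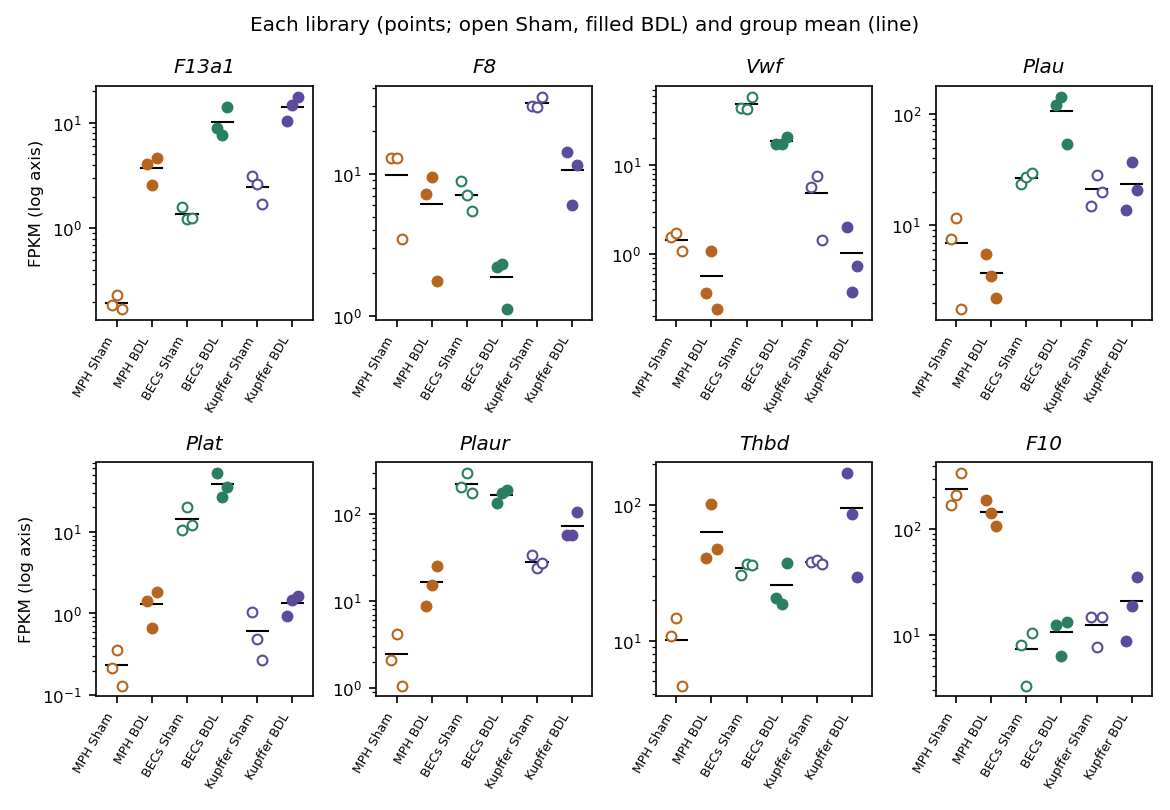
FPKM of 8 members (panels, log axes that differ between panels) in each library, open for Sham and filled for BDL, with the group mean as a line. F13a1 lies higher in BDL in all 3 preparations, F8 and Vwf lie lower in BECs BDL, Plau and Plat lie higher in BECs BDL, and Thbd and Plaur lie higher in MPH BDL.

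Of the 7 anticoagulant genes, 3 fell in BECs (background 4.70% called lower), and limma called none in MPH or Kupffer. An unadjusted p under 0.05 was held by 2 in MPH, beside 2791 of 12323 genes, and by 2 in Kupffer, beside 3070 of 12748. Serpinc1 encodes antithrombin, the main inhibitor of thrombin and factor Xa, and was at 11.5, 4.24 and 11.5 FPKM in BECs Sham and 2.30, 1.41 and 0.376 in BDL (limma log2 fold change -2.07, standard error 0.45, adjusted p = 0.0436). Serpind1, heparin cofactor II, was at 13.7, 6.05 and 12.0 FPKM in Sham and 2.39, 2.40 and 0.244 in BDL (-2.18, standard error 0.47, adjusted p = 0.0445). Neither gene's groups overlapped. Without BECs Sham 1, Sham 3, BDL 1, BDL 2 and BDL 3 the adjusted p for Serpinc1 was 0.148, 0.0978, 0.0652, 0.114 and 0.0619, and without BECs Sham 1, Sham 2, Sham 3, BDL 1 and BDL 2 that for Serpind1 was 0.147, 0.0633, 0.0969, 0.0717 and 0.0821. In MPH the same genes stood at 186 to 424 and 152 to 542 FPKM in Sham. The BECs Sham means were 2.95% and 3.17% of the MPH level, inside the range of the hepatocyte markers.

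Proc, which encodes protein C, the protease that inactivates factors Va and VIIIa, was at 60.4, 41.8 and 63.4 FPKM in BECs Sham and 13.4, 21.8 and 13.7 in BDL (limma log2 fold change -1.71, standard error 0.24, adjusted p = 0.0161). No BDL library reached a Sham library, and the adjusted p was 0.0708 without BECs Sham 1 and 0.0533 without BECs BDL 1. Its BECs Sham mean was 14.8% of the MPH level, close to the top of the marker range of 15.9%, and its BECs BDL mean was 7.11%, above the BDL range of marker means of 0.261% to 6.54%. By library it was at 5.84%, 9.53% and 5.97% in BECs BDL, beside highest markers of 7.86% (Cyp2e1), 5.86% (Hnf4a) and 7.94% (Hnf4a). Proc was thus above the markers in BECs BDL 2 alone. In MPH it stood at 237, 328 and 552 FPKM in Sham and 235, 214 and 239 in BDL (adjusted p = 0.348).

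Thbd and Pros1 had higher log2 fold changes in MPH than in the other preparations, and neither was called. Thbd, thrombomodulin, which turns thrombin into an activator of protein C, was at 10.8, 14.7 and 4.63 FPKM in MPH Sham and 40.9, 101 and 47.3 in MPH BDL, without overlap (limma log2 fold change 2.54, standard error 0.48, adjusted p = 0.0598). It was at 30.2, 36.5 and 36.2 FPKM in BECs Sham and 20.4, 18.7 and 37.3 in BDL, with overlap. In Kupffer it was at 38.1, 39.4 and 36.9 FPKM in Sham and 172, 85.9 and 29.5 in BDL, where Kupffer BDL 3, the library with the low Kupffer cell markers and the high neutrophil markers, lay below every Sham library. Pros1, protein S, the cofactor of activated protein C, was at 30.6, 35.7 and 29.6 FPKM in MPH Sham and 53.2, 72.0 and 84.3 in MPH BDL, again without overlap (1.08, standard error 0.24, adjusted p = 0.0746).

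Tfpi, the inhibitor of the tissue factor complex, was at 22.9, 21.5 and 23.3 FPKM in Kupffer Sham and 15.1, 7.60 and 6.42 in BDL, below every Sham library but not called (limma log2 fold change -1.22, standard error 0.30, adjusted p = 0.0751). It passed at 0.0384 when libraries were scaled to a common sum and at 0.0448 when scaled to recovered reads. Procr, the endothelial protein C receptor, had overlapping groups in all 3 preparations and was not called in any.

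Of the fibrinolysis genes, both plasminogen activators rose in BECs. Plau, urokinase, was at 23.7, 27.0 and 29.5 FPKM in BECs Sham and 122, 144 and 54.4 in BECs BDL (limma log2 fold change 1.85, standard error 0.36, adjusted p = 0.0318). Plat, tissue plasminogen activator, was at 10.5, 20.1 and 12.2 FPKM in Sham and 52.5, 27.1 and 36.0 in BDL (1.37, standard error 0.31, adjusted p = 0.0454). Sham and BDL did not overlap for either gene. Plau was called without BECs BDL 3 alone among the fits that left out 1 library (adjusted p up to 0.12, without BECs Sham 1), and Plat without BECs Sham 2 alone (up to 0.152, without BECs Sham 1). In BECs, 5 of 8 tested neutrophil markers were also called higher (background 2.96%). The sum of all 9 was 38.3 to 134 FPKM in Sham and 318 to 473 in BDL, and the 12 biliary markers summed to 4017 to 4624 in Sham and 3382 to 3756 in BDL. The part of neutrophils in the rises of Plau and Plat was not tested. Plau was not called in MPH or Kupffer, and Plat was under 1 FPKM in too many MPH libraries to be tested there.

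Plaur, the urokinase receptor, was at 203, 295 and 174 FPKM in BECs Sham and 135, 176 and 187 in BECs BDL, with overlap (limma adjusted p = 0.342). In Kupffer it was at 33.9, 24.1 and 27.3 FPKM in Sham and 57.0, 57.6 and 106 in BDL, and in MPH at 2.13, 4.18 and 1.06 in Sham and 8.89, 15.4 and 25.1 in BDL. Neither pair of groups overlapped, and both adjusted p-values were just above the threshold (0.0623 with a log2 fold change of 1.29 in Kupffer, and 0.0618 with 2.33 in MPH). With sex as a covariate Plaur was called in MPH (limma adjusted p = 0.0274), while in Kupffer its adjusted p was 0.107.

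Markers of some other cells were also higher in the libraries where Thbd and Plaur were, and those of others were not. In MPH the 6 mesothelial markers summed to 4.93 to 12.6 FPKM in Sham and 31.9 to 36.5 in BDL (1 of 5 tested called higher, Msln), and the 12 biliary markers to 27.1 to 54.5 and 73.2 to 98.9 (1 of 6 tested called higher, Krt7). The background there was 0.714% called higher. The monocyte markers of MPH, given beside F13a1, did not overlap between Sham and BDL either. The endothelial markers of MPH went the other way, with overlap, at means of 662 FPKM in Sham and 387 in BDL. The Kupffer cell markers of MPH also overlapped, at means of 5700 and 4687 FPKM. In Kupffer the 9 neutrophil markers summed to 329 to 365 FPKM in Sham and 877 to 2442 in BDL (3 of 8 tested called higher, background 1.47%). The top value was in Kupffer BDL 3, where Plaur was highest but Thbd was lowest (29.5 FPKM). The mesothelial markers of Kupffer summed to 6.00 to 15.1 and 37.4 to 81.5 (4 of 6 called higher). The monocyte sum of Kupffer, given beside F13a1, was also higher in BDL without overlap. So was the sum of 13 stellate and fibroblast markers, at 137 to 165 FPKM in Kupffer Sham and 200 to 401 in Kupffer BDL. Among these Col1a1 did not overlap and Dcn did. The endothelial sum of Kupffer, given beside F8 and Vwf, was lower in BDL. The part of these cells in the values of Thbd and Plaur was not tested.

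Plg, plasminogen, had nearly the same mean in MPH Sham (534 ± 277 FPKM, SD, n = 3) and MPH BDL (545 ± 71.3). Serpinf2, antiplasmin, stood at 559 ± 178 and 547 ± 141 FPKM there, and Cpb2, the carboxypeptidase that protects fibrin from plasmin, at 407 ± 150 and 420 ± 43.9. Hrg, the histidine-rich glycoprotein that binds plasminogen and heparin, was at 315, 358 and 550.3 FPKM in MPH Sham and 770, 535 and 679 in BDL, with overlap. In BECs Serpinf2 fell, from 21.5, 10.2 and 14.7 FPKM in Sham to 4.84, 2.95 and 0.732 in BDL (limma log2 fold change -2.21, standard error 0.48, adjusted p = 0.0449). Without BECs Sham 1, Sham 2, Sham 3 and BDL 2 that adjusted p was 0.145, 0.0835, 0.0921 and 0.11. Plg had a log2 fold change of -2.42 in BECs, the lowest of the tested members, and an adjusted p of 0.0562.

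Sham and BDL did not overlap for 18 of 30 members in BECs, 15 of them with BDL lower (background 18.8%) and 3 with BDL higher (13.0%). In Kupffer it was 17 of 30, 15 with BDL higher (background 16.7%) and 2 with BDL lower (15.6%), and in MPH 8 of 31, 7 with BDL higher (11.8%) and 1 with BDL lower (18.4%). The BECs count includes F13b, which reached 1 FPKM in Sham alone (4.873, 1.125 and 3.325, beside 0.819, 0.606 and 0.0768 in BDL). The MPH count includes F13a1, which reached it in BDL alone. Both passed the filter only through the group where they were high. Hepatocyte markers had fold changes of the same sign as most members. In BECs all 15 had log2 fold changes below 0 (median -2.15, 1 called, Ttr, background 4.70% called lower), and their sum was 1694 to 4240 FPKM in Sham and 207 to 782 in BDL. In Kupffer all 15 were above 0 (median 1.87, 0 called by limma, 10 at an unadjusted p under 0.05 beside 3070 of all 12748 genes), and the sum was 539.5 to 1300.5 FPKM in Sham and 1558 to 3997 in BDL. The part of hepatocyte RNA in the members' changes in BECs and Kupffer was not tested.

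Within the BDL libraries the 21 members highest in MPH followed 1 library. In Kupffer BDL, library 2 was the highest for 19 of the 21 and library 1 the lowest for 17. In BECs BDL, library 1 was the highest for 18 and library 3 the lowest for 17. Values were also taken per 1000 FPKM of Alb in BECs and Kupffer. Of 19 tested members highest in MPH, none had BDL below Sham without overlap in BECs on that scale (background 0.0810% of all genes), and 5 had BDL above Sham (F7, F10, F5, Kng2 and Cpb2, beside 92.0% of all genes). Fga stood at 66.1, 73.1 and 20.8 in BECs Sham and 107, 46.6 and 147 in BECs BDL, with overlap. Serpinc1, called lower in FPKM, had means of 5.08 in BECs Sham and 5.38 in BECs BDL. In Kupffer 2 of 19 had BDL above Sham (Cpb2 and Hrg, beside 0.533% of all genes) and 2 had BDL below (F7 and Serpind1, beside 40.8%). Fga stood at 83.8, 301.5 and 22.8 in Kupffer BDL against 27.5, 29.3 and 34.1 in Kupffer Sham, so Kupffer BDL 2 also stood apart on that scale and Kupffer BDL 3 lay below Sham.

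In BECs F10 was at 8.00, 3.26 and 10.4 FPKM in Sham and 12.3, 6.26 and 13.1 in BDL (limma log2 fold change 0.55, standard error 0.42, adjusted p = 0.472), and F7 was at 2.22, 1.12 and 3.55 in Sham and 1.85, 1.30 and 1.81 in BDL (-0.25, adjusted p = 0.62). Among the 19 tested members highest in MPH, F10 was the 1 with a log2 fold change above 0 in BECs. Its BECs BDL mean was 7.21% of the MPH level, above the range of marker means there. By library it was at 8.40%, 4.28% and 8.94%, beside highest markers of 7.86% (Cyp2e1), 5.86% (Hnf4a) and 7.94% (Hnf4a), so BECs BDL 2 lay inside the range.

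The difference of the response between preparations was tested as an interaction over 12 libraries. Between MPH and BECs, 3 of 32 members were called (background 1.60%, 0.886% higher), each higher in MPH: Thbd by 3.02 (standard error 0.60, limma adjusted p = 0.038), Plaur by 2.74 (0.56, 0.0399) and Pros1 by 1.45 (0.29, 0.0385). Between BECs and Kupffer, 11 of 32 were called, all lower in BECs (background 2.15% lower, 3.50% in either direction). They were Fgb, Fgg, Plg, Serpinf2, F2, Cpb2, Serpinc1, Serpind1, Proc, F11 and Plaur, with differences from -5.18 (Fgb, adjusted p = 0.044) to -1.70 (Plaur, adjusted p = 0.0454). With sex as a covariate the difference for Plaur was not called (limma adjusted p = 0.0699). F11 passed the filter here only through the groups where it was high: it stood at 2.29, 0.848 and 1.00 FPKM in BECs Sham and 0.599, 3.15 and 2.27 in Kupffer BDL, and at most at 0.366 in BECs BDL and 0.532 in Kupffer Sham. Between MPH and Kupffer limma called none (background 0.404%), and 7 of 32 had an unadjusted p under 0.05, beside 2683 of all 14101 genes tested. With the number in the sample titles as a replicate block, the count of members called was also 0, while the count called over all 14101 genes tested was 469 in place of 57.

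These counts also moved with single libraries. The count of 3 was 6 without MPH BDL 1, 1 without BECs BDL 3 and 0 without MPH Sham 1, MPH BDL 2, MPH BDL 3, BECs Sham 1, BECs Sham 2 or BECs BDL 2 (13 to 22 members at an unadjusted p under 0.05 wherever limma called none). Over all genes those fits called 338 without MPH BDL 1, 199 without BECs BDL 3 and 51 to 187 where no member was called, in place of 237. The count of 11 was 18 without Kupffer BDL 1 and 17 without Kupffer BDL 3. Over all genes those fits called 736 and 1773, in place of 520. The member count was 7 without BECs Sham 2, 6 without BECs BDL 1 or Kupffer BDL 2, 4 without BECs BDL 3, 1 without BECs Sham 3, BECs BDL 2 or Kupffer Sham 1, and 0 without BECs Sham 1, Kupffer Sham 2 or Kupffer Sham 3 (20 to 23 at an unadjusted p under 0.05). Over all genes it was 290, 217 (BECs BDL 1), 229 (Kupffer BDL 2) and 456, then 183 to 316 where 1 member was called and 38 to 44 where none was. In the main fits 18 members had an unadjusted p under 0.05 for MPH minus BECs, beside 2632 of 14780 genes. For BECs minus Kupffer 22 did, beside 3189 of 14874 genes. The comparisons share libraries, so they are not independent of each other.

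A list of 37 other genes of haemostasis (vitamin K cycle, further protease inhibitors, thrombin and plasminogen receptors and others) was read beside the members. Thbs1, thrombospondin 1, a matrix protein of platelets and other cells, rose by 3.76 on the log2 scale in MPH (limma adjusted p = 0.0278) and by 2.68 in Kupffer (adjusted p = 0.0272). Kupffer had 4 of 30 called (background 1.47% higher and 2.40% lower): Thbs1 and Fgl1, a fibrinogen-like liver protein, higher, and Mmrn2 and Stab2, both endothelial genes, lower. In BECs 6 of 33 were called, all lower (background 4.70% lower): Mmrn2, Adamts13, Habp2, Stab2, Pzp and Gas6.

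The vitamin K cycle and factor secretion genes (Ggcx, Vkorc1, Vkorc1l1, Lman1 and Mcfd2) were each higher in MPH Sham than in both other preparations (background 21.4%). After ligation limma called 0 of 5 in MPH, BECs or Kupffer, with 1 of 5 at an unadjusted p under 0.05 in each. Over all genes 2791 of 12323, 3526 of 13573 and 3070 of 12748 had such a p. Between MPH and BECs the response was higher in MPH for Serpina10 and Tgm2 by the limma test (background 0.886% higher). Between BECs and Kupffer 5 were called (background 3.50% in either direction), with Serpina10, Fgl1, Habp2 and Apoh lower and Plgrkt higher in BECs.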

How the data were processed

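Polyadenylated RNA of 18 libraries was analysed. Per the submitters' processing notes, the tools were CASAVA 1.8, fastp, HISAT2 2.0.5, featureCounts 1.5.0-p3 and DESeq2 1.20.0, with the build GRCm38 (mm10). The values were deposited as FPKM per gene. How the authors set the library size is not given in the sources used here. Reads were recovered from FPKM and the exon length of each gene, and 97.4% to 98.4% of values under 200 reads came out whole (within 0.02). The values correspond to a library size of 0.517 to 0.741 times those reads in MPH and 0.934 to 1.22 times in the others, so other scalings were tried.

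Values were tested as log2(FPKM + 1) with limma 3.58.1 (statmod 1.5.0, R 4.3.3; robust, mean trend, 2-sided), on genes with at least 1 FPKM in at least 3 libraries of the comparison, and adjusted by Benjamini-Hochberg over all of them. The code was tested on simulated data. Responses used the 6 libraries of a preparation, differences of responses 12, and Sham levels 9. Descriptions used Python 3.11.15 with pandas 2.3.3.

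MPH and Kupffer share 3 numbers in their sample titles. Deviations from group means correlated between same-numbered libraries, with r of 0.213, 0.324 and 0.2995 over 15594 genes, so the numbers were taken as pairs in a fit with a replicate block. Between libraries of different numbers r ran from -0.320 to 0.208, so its top came close to the lowest of these. The same-numbered libraries also had the same sex by Y chromosome genes. Alternatives were a pseudocount of 0.1, no filter, libraries scaled to a common sum or to recovered reads, 1 model of all 18 libraries, the block, each library left out, and sex as a covariate, which was chosen after seeing the data. Males numbered 2 of 3 in MPH Sham, MPH BDL and BECs Sham and 1 of 3 in the other groups. The members and lists were chosen with earlier results of these data known. All 32 members are named, with full statistics where called, and of the other haemostasis genes up to 6 called ones per comparison by smallest p. HSC, which the design text names, were not analysed here. A result for 1 gene of the haemostasis list is not reported here.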

Additional observations from a re-analysis of the deposited data

Results flagged for a closer look

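The response to ligation differed between MPH and BECs for 3 of the 32 genes (background 1.60% of all genes) and between BECs and Kupffer for 11 of the 32 (background 3.50%), by the limma interaction test (adjusted p under 0.05). Between MPH and BECs it was higher in MPH by 3.02 for Thbd, 2.74 for Plaur and 1.45 for Pros1, on the log2 scale. Between BECs and Kupffer it was lower in BECs for the fibrinogen chains Fgb (-5.18) and Fgg (-5.16), for plasminogen, antiplasmin and Cpb2 (Plg -3.85, Serpinf2 -3.70, Cpb2 -3.46), for prothrombin and factor XI (F2 -3.50, F11 -2.05), for the anticoagulants Serpinc1 (-2.96), Serpind1 (-2.81) and Proc (-2.71), and for Plaur (-1.70). F11 passed the filter on low values only through BECs Sham and Kupffer BDL, the groups where it was high. In both of these comparisons the counts of calls moved with single libraries, as described above, and the summed hepatocyte markers stood lower in BECs BDL and higher in Kupffer BDL than in Sham. Mesothelial, biliary and monocyte marker sums were also higher in MPH BDL than in MPH Sham, beside Thbd, Plaur and Pros1. Neutrophil, mesothelial, monocyte, and stellate and fibroblast sums were higher in Kupffer BDL than in Kupffer Sham, beside Plaur. Not every marker followed its sum: the monocyte marker Ly6c2 overlapped between Sham and BDL in MPH and in Kupffer. The endothelial and Kupffer cell marker sums of MPH overlapped between Sham and BDL, with lower means in BDL. The part of these cells was not tested.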

How the results depend on the processing

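The 21 members highest in MPH Sham and the 4 highest in BECs Sham came out with the same counts under every setting, and the 4 of Kupffer became 2 with no filter or in 1 model of all 18 libraries (2 to 4 with 1 library left out). The counts of called responses depended on the processing, and the cause was not tested. With no filter on low values limma called 0 in MPH, 1 in BECs, 0 in Kupffer and 0 in each difference of responses. In 1 model of 18 libraries it called 4 in MPH, 10 in Kupffer and 1 for MPH minus Kupffer, and a pseudocount of 0.1 gave 1 in Kupffer, 0 for MPH minus BECs and 3 for BECs minus Kupffer. Scaling to a common sum or to recovered reads gave 6 and 5 for MPH minus BECs and 5 and 4 for BECs minus Kupffer. These scalings moved the median of all genes in the Kupffer response from 0.03 to -0.25 and -0.15, that of MPH minus BECs in Sham from 0.01 to -0.83 and -0.54, and that of MPH minus Kupffer in Sham from -0.05 to -0.91 and -0.65. Sex as a covariate gave 2 in MPH (147 over all genes), 4 in BECs (576), 0 in Kupffer (1) and 1 for BECs minus Kupffer (244). With 1 library left out the counts ran from 0 to 0 in MPH, 1 to 8 in BECs, 0 to 7 in Kupffer, 0 to 6 for MPH minus BECs and 0 to 18 for BECs minus Kupffer. Over all genes they ran from 8 to 77, 86 to 1033, 0 to 2272, 51 to 338 and 38 to 1773. In MPH, F13a1 could not be tested with a BDL library left out. The replicate block left the MPH minus Kupffer count at 0 (9 members at an unadjusted p under 0.05) but moved the count over all genes there from 57 to 469. It changed no other count of called members. Where limma called 0, 4 to 23 members had an unadjusted p under 0.05. The count over all genes at that p was taken in the main fits alone. There it was 2791 of 12323 in MPH, 3526 of 13573 in BECs and 3070 of 12748 in Kupffer. Changes of sign fell on uncalled values alone: Serpinf2 in MPH was 0.17 (common sum) and 0.043 (recovered reads), F3 in MPH 0.0033 (common sum), and Plau in Kupffer -0.21 and -0.096. With 1 library left out, the log2 fold change in MPH ran from -0.20 to 0.54 for Plg, -0.15 to 0.38 for Cpb2, -0.49 to 0.12 for F2, -0.21 to 0.23 for Serpinf2, -0.92 to 0.32 for F3, -0.90 to 0.0024 for F13b and -0.34 to 0.84 for Procr. In BECs it ran from -0.54 to 0.014 for F7 and -0.16 to 0.71 for Procr, and in Kupffer from -0.26 to 0.42 for Plau. Members under 1 FPKM limit what depth can show: F11 and Klkb1 could not be tested in BECs or Kupffer, nor Plat in MPH.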
